A study of Mus musculus with 12 samples.

Results

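Transcripts of 9 genes of the S100 and annexin families, S100a8, S100a9, S100a4, S100a6, S100a10, S100a11, Anxa1, Anxa2 and Anxa3, were followed in RNA of mouse neutrophils from bone marrow (BM) and from the inflamed peritoneum (PT). They were taken by gene symbol from a deposited table of 28987 genes, and all 9 were found and tested. Neutrophils of wild-type (WT) FVB mice and of MRP8-Bcl2 mice on the same strain were sorted into Trizol from both sites of each mouse after 2 mL thioglycollate had been injected into the peritoneum, so that every library, BM included, came from an injected mouse. MRP8-Bcl2 mice carry human Bcl-2 driven by the regulatory region of human MRP8, the gene now called S100A8, which is active in myeloid cells. Each of the 4 groups (BM and PT of either genotype, with Bcl2 for MRP8-Bcl2) holds 3 libraries, which are named here by the numbers in the column names: 4, 5 and 6 for BM WT, 10, 11 and 12 for PT WT, 1, 2 and 3 for BM Bcl2, and 7, 8 and 9 for PT Bcl2. The sample labels give collection at 6 h and macrophages as the source, whereas the methods of the study place collection at an earlier or a later hour and its design text gives neutrophils. No column names a mouse, so BM and PT libraries of 1 mouse could not be matched, and p-values measure only the spread between these libraries.

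S100 proteins are small calcium-binding proteins that work as pairs in the cytosol and, once released, as danger signals. S100A8 and S100A9 form calprotectin, which fills the neutrophil cytosol, withholds zinc and manganese from microbes and is sensed by TLR4 and the receptor RAGE. Annexins bind acidic phospholipids when calcium rises and act in membrane repair, granule fusion and the ending of inflammation. The families meet in S100A10 with annexin A2 and in S100A11 with annexin A1, where an S100 pair bridges annexin molecules on a membrane.

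Values are TPM (a gene's share of the transcripts of a library after correction for length, scaled to 1 fixed total). Changes are log2 fold changes on log2(TPM + 1). Differences were tested with limma over 13456 genes, with Benjamini-Hochberg adjusted p-values, and a gene was called at an adjusted p under 0.05 and at least a 2-fold change. S100 transcripts are short, from 498 to 783 nt for the longest annotated one, and how far the length correction sets their TPM was not tested.

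The 6 S100 genes lie on mouse chromosome 3 (GRCm38). S100a4, S100a6, S100a8 and S100a9 fall within 91.95 kb, at chr3:90603771-90695721. S100a11 and S100a10 lie together at chr3:93520488-93564643. Anxa1 is on chromosome 19, Anxa2 on chromosome 9 and Anxa3 on chromosome 5. Since several of these genes fell together, the core promoters of the 7 with a RefSeq entry (GRCm38.p6) are shown as the 30 bases from 40 to 11 before the transcription start, 5′ to 3′ on the gene's own strand. Capitals mark the letters TATAAA, and in S100a8 also TTCCTC just before them.
S100a8: agctTTCCTCTATAAAagcagctgacactt
S100a9: atcttccccgagataaccatgtatctaaca
S100a4: ctggcagggTATAAAtaggtcagattgttg
S100a6: ggacactgctctcgggctggcagaaggttc
S100a11: cctgagtcaggctgaggggcgggacccgga
Anxa1: tcatatccTATAAAatcaggagtccaaccc
Anxa2: tcgcgctgggaggatggggcgggTATAAAa

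These windows are chr3:90669031-90669060 for S100a8, chr3:90695732-90695761 (minus strand) for S100a9, chr3:90603730-90603759 for S100a4, chr3:90612854-90612883 for S100a6, chr3:93520456-93520485 for S100a11, chr19:20390682-20390711 (minus strand) for Anxa1 and chr9:69453643-69453672 for Anxa2. Those of S100a8, Anxa1, Anxa2 and the end of that of S100a6 lie within the span that GENCODE M21 gives the gene, which has an earlier annotated start. Over the 250 bases before the start, searched on both strands, TATAAA was found in 4 of the 7 promoters and in 12.4% of all 32851 promoters of the same length. It began 30 bases before the start in S100a8, 31 in S100a4, 32 in Anxa1 and 17 in Anxa2. S100a8 and Anxa1 are among the genes that fell in the peritoneum, whereas S100a4 and Anxa2 were not called, and S100a9, which moved most closely with S100a8, has no TATAAA.

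The letters TTGCNNAA, a form of the C/EBP motif, were found 236 bases before the start of S100a9 and 143 before that of Anxa1, and in 9.56% of all promoters. The letters GAGGAA, a form of the ETS motif that on the other strand reads TTCCTC, were found in S100a8, S100a11 and Anxa1 and in 23.3% of all promoters. The S100a9 promoter, which lies outside the annotated gene, is shown over its 250 bases at chr3:90695722-90695971 (minus strand), with TTGCNNAA in capitals.
S100a9: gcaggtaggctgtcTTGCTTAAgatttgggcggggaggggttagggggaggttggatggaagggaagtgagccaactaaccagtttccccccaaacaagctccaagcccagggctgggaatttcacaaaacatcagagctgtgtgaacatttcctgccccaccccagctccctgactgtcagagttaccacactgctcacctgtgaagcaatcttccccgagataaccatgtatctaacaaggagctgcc

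The libraries differed in ways that touch these genes. Between 9735 and 14305 genes were above 0, and 1 read on a transcript of 1000 nt was worth an estimated 0.343 to 1.61 TPM. The 108 genes whose annotated transcripts contain 31 or more A or T in a row took 8.93 to 24.1% of the TPM in BM libraries, 50.8, 54.2 and 19.96% in PT WT libraries 10, 11 and 12, and 15.5, 60.2 and 65.6% in PT Bcl2 libraries 7, 8 and 9. The mouse Bcl2 gene stood at 0.219 to 2.37 TPM in WT libraries and at 166 to 333 TPM in BM Bcl2 libraries, but at 82.8, 58.6 and 0.695 TPM in libraries 7, 8 and 9, so that the library labelled PT Bcl2 with number 9 sat at the WT level. Whether these are reads of the human transgene was not tested. All 6 neutrophil markers were listed in the table (Ly6g, Csf3r, Cxcr2, Mmp8, Mmp9 and Retnlg), with 5 or 6 above 0 in each library and a summed level of 1284 to 28077 TPM. The 8 macrophage markers summed to 15.1 to 139 TPM, with 7 or 8 above 0 in PT WT and 5 to 7 in PT Bcl2 libraries, where C1qa was at 0. Of 4 mesothelial markers 1 or 2 were above 0 in each library, with a sum of at most 7.59 TPM and Msln and Upk3b at 0 in all 12. Mast cell markers (Cpa3, Mcpt4 and Kit) summed to 596 TPM in library 12 and at most 77.3 TPM in the others, and those of megakaryocytes and platelets (Pf4, Ppbp and Itga2b) to 526 TPM in library 7, 156 TPM in library 12 and at most 32.3 TPM in the others. Libraries 7 and 12 are those that stand highest for S100a8 in PT on the deposited scale. With TPM rescaled without the 108 genes, library 8 stood highest, at 37685 TPM, against 36994 TPM in library 12 and 31865 TPM in library 7. The part of these markers was not tested.

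The 9 genes together took 21.2 to 35.7% of all TPM in BM WT libraries and 8.83 to 22.7% in those of BM Bcl2. In PT the share was 1.78 to 5.90% in WT and 2.18 to 7.36% in MRP8-Bcl2 mice. By group medians, S100a9 and S100a8 were first and second in all 4 groups. S100a11 came next and Anxa1 after it in BM WT, PT WT and PT Bcl2, and the reverse in BM Bcl2, where their ranges overlapped. S100a6 and Anxa2 followed in that order throughout, also with overlapping ranges. S100a4, Anxa3 and S100a10 were the lowest, and Anxa3 stood last in both PT groups. Many neighbours in this order overlapped between libraries, S100a8 and S100a9 included.

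**Figure D1:**
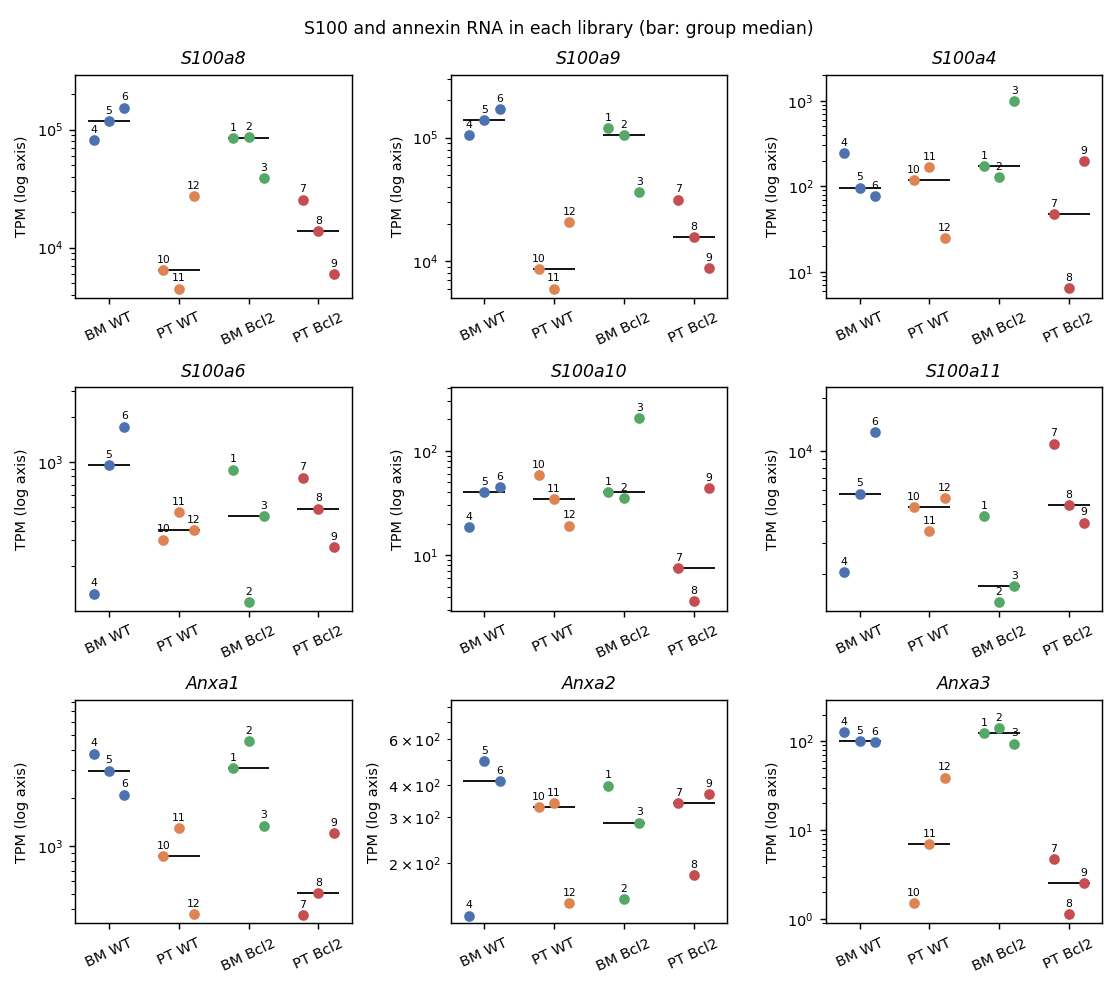
Level of each of the 9 genes in each library (TPM, log axis), by group, with the library number above each point and the group median as a bar. In both genotypes every PT point lies below every BM point for S100a8, S100a9, Anxa1 and Anxa3, and the other 5 genes overlap. How many of all tested genes separate in this way was not counted.

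Going from BM to PT in WT mice, S100a8, S100a9 and Anxa3 fell, and no member was called higher. These 3 of 9 compare with 1.22% of all tested genes called lower (164 genes) and 1.59% called higher (214 genes). The median change of the 9 was -0.72, against 0.22 over all tested genes. Anxa1 was lower in every PT library but was not called, and the other 5 overlapped between the sites. The share of all tested genes without overlap between the sites was not counted. In MRP8-Bcl2 mice S100a8, S100a9, Anxa1 and Anxa3 fell and no member was called higher. These 4 of 9 compare with 19.1% of all tested genes called lower (2567 genes) and 2.31% called higher (311 genes), and the median change was -2.24, against -1.02 over all tested genes.

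The balance of higher and lower calls over all genes depended on the scaling. Centring each library on its median turned the counts in MRP8-Bcl2 mice into 1636 higher and 467 lower, with a median change of 0.57, and those in WT mice into 112 higher and 197 lower. Rescaling TPM without the 108 genes with long A or T runs gave 543 higher and 1088 lower in MRP8-Bcl2 mice and 485 higher and 109 lower in WT mice. Changes of the members with centred libraries, under quantile normalization and without the genes with A or T runs are therefore given beside the main ones. In bulk RNA, fewer cells of a type and less RNA of a gene per cell cannot be told apart.

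**Figure D2:**
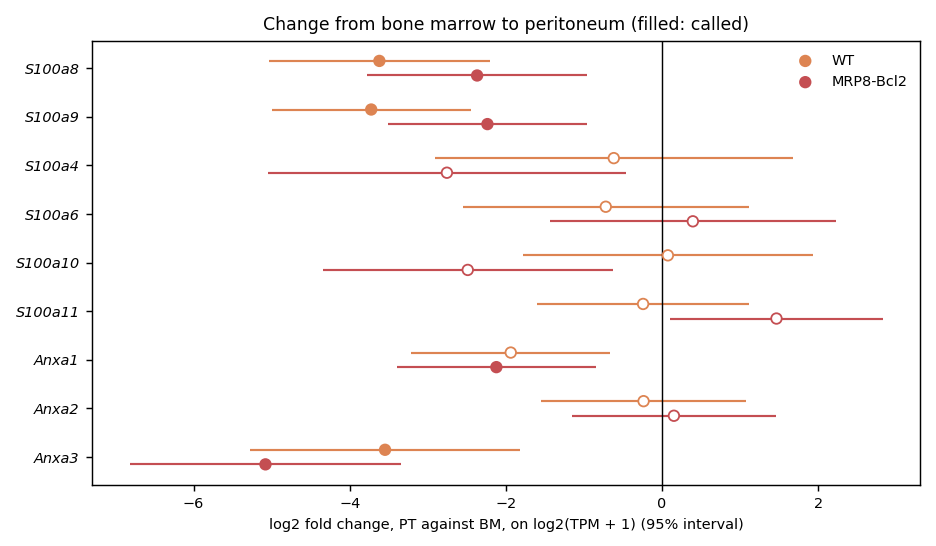
Log2 fold change from BM to PT on log2(TPM + 1), with its 95% interval, for the 9 genes in WT and in MRP8-Bcl2 mice (3 libraries a group, limma). Filled points were called: S100a8, S100a9 and Anxa3 in WT, and these with Anxa1 in MRP8-Bcl2, all to the left of 0.

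S100a8, which encodes 1 chain of calprotectin, stood at 81902, 117798 and 153516 TPM in BM WT libraries 4, 5 and 6 and at 6486, 4495 and 27252 TPM in PT WT libraries 10, 11 and 12. In MRP8-Bcl2 mice it stood at 85356, 86786 and 38874 TPM in BM libraries 1, 2 and 3 and at 25493, 13763 and 5951 TPM in PT libraries 7, 8 and 9. BM and PT did not overlap in either genotype, library 12 was the highest PT library and library 3 the lowest BM library. The mean was 117739 ± 35807 TPM (SD, n = 3) in BM WT and 12745 ± 12603 TPM (SD, n = 3) in PT WT, a change of -3.62 (SE 0.66, limma with Benjamini-Hochberg adjusted p = 0.0101), or 12.3-fold lower. In MRP8-Bcl2 mice the change was -2.37 (SE 0.66, adjusted p = 0.0224), or 5.17-fold lower.

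Even where S100a8 fell, it kept a high place, from second to ninth of all genes in every library. Quantile normalization sets values by rank within a library. It therefore leaves little room for a fall of S100a8, or of S100a9, which ranked 1 to 6, and cannot show the full size of either. The fall in WT mice was -3.84 (adjusted p = 0.0220) with centred libraries and -3.07 (adjusted p = 0.00265) without the genes with A or T runs, and it was not called under quantile normalization (-1.65, adjusted p = 0.158). In MRP8-Bcl2 mice it was -1.62 (adjusted p = 0.0376) without those genes and was not called with centred libraries (-0.78, adjusted p = 0.527) or under quantile normalization (-0.60, adjusted p = 0.540). The call in WT mice was lost without library 10 (adjusted p = 0.0585) or 11 (adjusted p = 0.0509), and that in MRP8-Bcl2 mice without library 2 (adjusted p = 0.0753), 8 (adjusted p = 0.0582) or 9 (adjusted p = 0.0873).

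S100a9, the other chain of calprotectin, was first to sixth of all genes in every library. It stood at 104320, 138108 and 171462 TPM in BM WT and at 8589, 6004 and 20679 TPM in PT WT. The MRP8-Bcl2 libraries held it at 119434, 105605 and 36140 TPM in BM and at 31580, 15692 and 8779 TPM in PT. The groups did not overlap by site in either genotype, and as for S100a8, library 3 was the lowest of BM and library 11 the lowest of PT. S100a9 fell by 3.73 on the log2 scale in WT mice (SE 0.60, adjusted p = 0.00511, 13.2-fold lower) and by 2.24 in MRP8-Bcl2 mice (SE 0.60, adjusted p = 0.0182, 4.71-fold lower). The call in WT mice held without each library in turn (adjusted p = 0.00312 to 0.0323), with centred libraries (-3.94, adjusted p = 0.0158) and without the genes with A or T runs (-3.18, adjusted p = 0.00144), and was lost under quantile normalization (-2.88, adjusted p = 0.0569). In MRP8-Bcl2 mice it was lost without library 2 (adjusted p = 0.0692), 8 (adjusted p = 0.0591) or 9 (adjusted p = 0.0719), with centred libraries (-0.65, adjusted p = 0.591) and under quantile normalization (-1.24, adjusted p = 0.314), and held without the genes with A or T runs (-1.49, adjusted p = 0.0366).

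Together the pair took 20.5, 27.8 and 33.9% of the TPM in BM WT and 1.65, 1.15 and 5.21% in PT WT. In MRP8-Bcl2 mice the shares were 21.8, 21.1 and 8.27% in BM and 6.03, 3.21 and 1.55% in PT. PT libraries 7 and 12, which have the highest share of the pair among PT libraries, also have the lowest share of genes with long A or T runs there. Rescaled without those genes, S100a8 stood at 14461, 10715 and 36994 TPM in PT WT and 31865, 37685 and 18221 TPM in PT Bcl2, against 49721 to 175988 TPM in BM, so that BM and PT still did not overlap. Markers of immature neutrophils (Mpo, Elane, Prtn3, Ctsg, Camp, Ltf and Ngp) were also lower in PT than in BM. They summed to 10900 to 31134 TPM in BM and 78.2 to 185 TPM in PT. All 7 listed were above 0 in every BM library and 5 to 7 in PT libraries. Within a site their order was not always that of the pair. BM WT libraries 5 and 6 had the highest shares of the pair and the lowest sums in BM, 10900 and 13595 TPM. Library 3, with the lowest share in BM, came next at 14047 TPM. Library 12 had the highest share in PT WT and the lowest sum, 78.2 TPM. In PT Bcl2 the sums ran in the order of the share. The part of these markers in the fall was not tested.

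**Figure D3:**
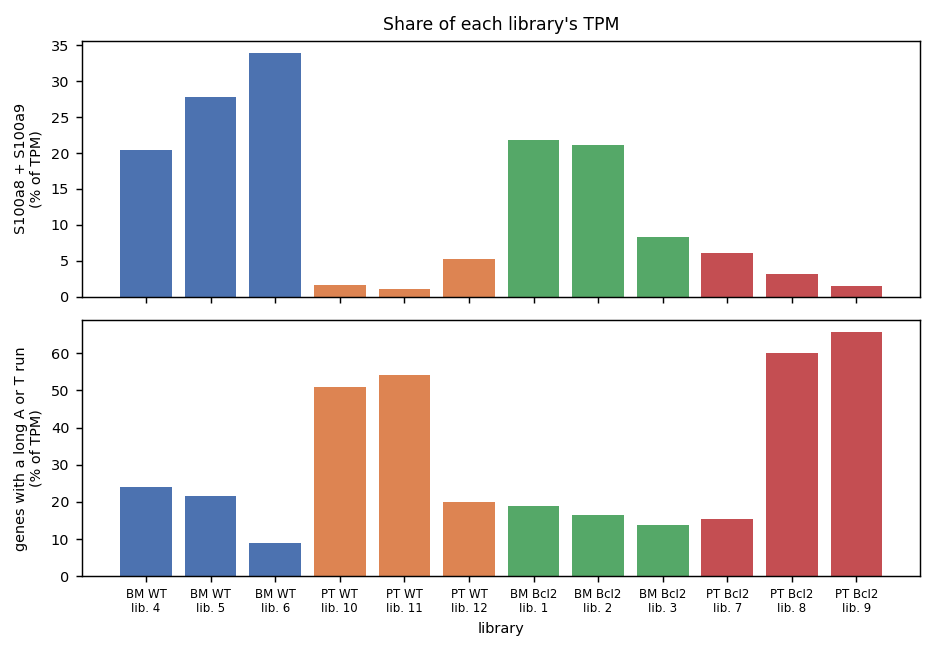
Share of each library's TPM taken by S100a8 and S100a9 together (top) and by the 108 genes with 31 or more A or T in a row (bottom), by group and library number. The pair takes 8.27 to 33.9% in BM and 1.15 to 6.03% in PT, and PT libraries 7 and 12 have the highest share of the pair and the lowest share of the other genes among PT libraries.

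The ratio of S100a8 to S100a9 TPM lay between 0.678 and 1.32 in all 12 libraries. Dividing a library by 1 factor leaves this ratio as it is, whereas quantile normalization does not, since under it the changes of the pair in WT mice were -1.65 and -2.88. In WT libraries it was 0.785 to 0.895 at BM and 0.749 to 1.32 at PT, and in MRP8-Bcl2 libraries 0.715 to 1.08 at BM and 0.678 to 0.877 at PT, so that all groups overlapped. It was above 1 in libraries 3 and 12 alone. As a measure of likeness, the root mean square difference between the log2 profiles of the pair over the 12 libraries, each profile centred on its mean, was 0.25, the smallest of the 36 pairs of members.

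Among 6132 genes with a mean of at least 10 TPM outside the members, the profiles most like that of S100a8 by this measure were those of Atrn (0.61), Atp2c1 (0.62) and Alox5 (0.63). Atrn encodes attractin, Atp2c1 a calcium and manganese pump of the Golgi, and Alox5 the lipoxygenase that starts leukotriene synthesis. Alox5, for example, averaged 156 TPM in BM WT, 30.6 TPM in PT WT, 158 TPM in BM Bcl2 and 30.6 TPM in PT Bcl2.

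Anxa3, an annexin of neutrophil granules that promotes the aggregation of granules by calcium, showed the steepest fall in MRP8-Bcl2 mice among the 9. It stood at 128, 101 and 97.5 TPM in BM WT and at 1.51, 6.99 and 39.02 TPM in PT WT. With the transgene it stood at 124, 142 and 94.2 TPM in BM and at 4.75, 1.14 and 2.57 TPM in PT. The 6 BM libraries lay close together, and among PT libraries library 12 stood far above the rest, yet below all BM libraries. Anxa3 fell by 3.55 in WT mice (SE 0.81, adjusted p = 0.0315, 11.7-fold lower) and by 5.08 in MRP8-Bcl2 mice (SE 0.81, adjusted p = 0.00161, 33.8-fold lower).

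The call for Anxa3 in MRP8-Bcl2 mice held without each library in turn (adjusted p up to 0.0108) and under each other setting tried, with -3.49 for centred libraries, -4.16 under quantile normalization and -4.61 without the genes with A or T runs. That in WT mice held under these scalings too (-3.76, -3.87 and -3.16) but was lost with a pseudocount of 0.1 (-3.82, adjusted p = 0.0529) and without library 4 (adjusted p = 0.103), 5 (adjusted p = 0.0727), 6 (adjusted p = 0.0786), 10 (-2.60, adjusted p = 0.123) or 11 (adjusted p = 0.0927). A level near 1 TPM rests on few reads, since 1 read on a transcript of 1000 nt was worth an estimated 0.668 to 1.07 TPM in PT Bcl2 libraries. Of the 31-nt stretches of Anxa3, 2.75% also occur in transcripts of 47 other annotated genes. The 37 of these with values held 39.95 to 98.9% of the TPM summed with Anxa3, and their part in its level was not tested.

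Anxa1, the glucocorticoid-induced annexin that signals through formyl peptide receptors to limit neutrophil entry, stood at 3808, 2978 and 2104 TPM in BM WT and at 869, 1298 and 375 TPM in PT WT. In the Bcl2 groups it stood at 3080, 4534 and 1342 TPM in BM and at 370, 505 and 1208 TPM in PT. PT lay below BM in both genotypes, by a narrow gap in MRP8-Bcl2 mice, where library 9 nearly reached library 3. The change was -2.12 in MRP8-Bcl2 mice (SE 0.60, adjusted p = 0.0232, 4.35-fold lower) and -1.94 in WT mice (SE 0.60, adjusted p = 0.102), with a raw p of 0.00554 in the latter. The order of PT libraries was not that of S100a8, since the highest for Anxa1, 9 and 11, were the lowest for S100a8.

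The call for Anxa1 in MRP8-Bcl2 mice was lost without library 2 (adjusted p = 0.0992), 7 (adjusted p = 0.0745) or 8 (adjusted p = 0.0701). It was also lost with centred libraries (-0.53, adjusted p = 0.621), under quantile normalization (-2.0, adjusted p = 0.111) and without the genes with A or T runs (-1.37, adjusted p = 0.248). In WT mice the change under these 3 scalings was -2.15, -2.14 and -1.39, not called. Rescaled in the last way, Anxa1 stood at 463, 1383 and 3700 TPM in PT Bcl2 and at 1717 to 5950 TPM in BM Bcl2, so that the sites overlapped. The most similar profiles were those of G6pdx (0.63), the first enzyme of the pentose phosphate pathway, Lats2 (0.63), a kinase of the Hippo pathway, and Zbtb34 (0.63), a zinc finger gene.

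S100a11, the partner of annexin A1, was among the 38 most abundant genes of every library. It stood at 2047, 5726 and 12903 TPM in BM WT and at 4815, 3493 and 5428 TPM in PT WT. The transgenic libraries had it at 4286, 1383 and 1702 TPM in BM and at 11028, 4921 and 3921 TPM in PT. The WT groups overlapped, and in MRP8-Bcl2 mice only BM library 1 reached into the PT range. The change was -0.24 in WT mice (SE 0.64, adjusted p = 0.891) and 1.47 in MRP8-Bcl2 mice (SE 0.64, adjusted p = 0.110).

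In MRP8-Bcl2 mice S100a11 was called higher in PT with centred libraries (3.06, adjusted p = 0.0294) and without the genes with A or T runs (2.22, adjusted p = 0.0168). In the second of these scales it stood at 13784, 13474 and 12006 TPM in PT Bcl2 and at 5614, 1815 and 2177 TPM in BM Bcl2, without overlap. Under quantile normalization its change was 1.66 (adjusted p = 0.0616). In WT mice its direction changed with the scaling, to 0.13 under quantile normalization and 0.30 without those genes, and was -0.46 with centred libraries. Of its 31-nt stretches, 48.9% also occur in transcripts of 6 other annotated genes, S100a11-ps among them, so its level is uncertain, although the 5 of these that the table lists held at most 0.975% of the summed TPM.

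Within libraries, the ratio of S100a11 to Anxa1 was higher in PT than in BM by its median, without a test. In WT mice the ratio was 0.538 to 6.13 at BM and 2.69 to 14.5 at PT, which overlap. In MRP8-Bcl2 mice it was 0.305 to 1.39 at BM and 3.24 to 29.8 at PT, which do not. Anxa1 alone also separated the sites there, and the share of all tested genes whose ratio to it does so was not counted.

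S100a6, or calcyclin, which binds the ubiquitin ligase adaptor encoded by Cacybp, stood at 130, 951 and 1724 TPM in BM WT and at 299.9, 458 and 348 TPM in PT WT. In MRP8-Bcl2 mice it stood at 885, 115 and 434.5 TPM in BM and at 783, 484 and 266 TPM in PT. The BM libraries were the more widely spread, with libraries 4 and 2 below all PT libraries. The change was -0.72 in WT mice (SE 0.86, adjusted p = 0.731) and 0.39 in MRP8-Bcl2 mice (SE 0.86, adjusted p = 0.763). With centred libraries, under quantile normalization and without the genes with A or T runs it was -0.94, -0.78 and -0.17 for WT mice. The same scalings gave 1.98, 0.49 and 1.14 with the transgene, and none of these was called.

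Relative to S100a8, S100a6 was higher in all 6 PT libraries than in all 6 BM libraries. S100a8 itself did not overlap between the sites, whereas S100a6 did, so this ratio holds the fall of S100a8. How many of all tested genes separate the sites by their ratio to S100a8 was not counted. In BM the ratio was 0.00159 to 0.0112 in WT and 0.00132 to 0.0112 in MRP8-Bcl2 mice. In PT it was 0.0128 to 0.102 in WT and 0.0307 to 0.0447 in MRP8-Bcl2 mice. The lowest PT value, that of library 12, lay just above the highest BM values. The profiles most like that of S100a6 were those of Ifitm2 (0.58), an interferon-induced membrane gene, Dok3 (0.59), an adaptor of immune receptors, and Sgms1 (0.62), a sphingomyelin synthase. Among the members, those of S100a11 (0.69) and Anxa2 (0.76) came closest to it.

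The spread of S100a6, S100a11, Anxa2 and S100a9 in BM ran beside that of the neutrophil markers. Those markers summed to 15157, 28077 and 25695 TPM in BM libraries 1, 5 and 6 and to 1284, 1730 and 2371 TPM in libraries 2, 3 and 4. S100a6, S100a11, Anxa2 and S100a9 were each higher in libraries 1, 5 and 6 than in 2, 3 and 4, and the other members were not. The part of these markers in the spread was not tested.

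Anxa2 encodes the phospholipid-binding subunit of the complex with S100A10. It stood at 125, 494 and 412 TPM in BM WT and at 328, 339.5 and 139.9 TPM in PT WT. The MRP8-Bcl2 libraries held it at 397, 145 and 286 TPM in BM and at 341, 179.7 and 369 TPM in PT. All 4 groups overlapped. The change was -0.24 in WT mice (SE 0.61, 95% interval -1.55 to 1.07, adjusted p = 0.889) and 0.15 in MRP8-Bcl2 mice (SE 0.61, 95% interval -1.16 to 1.46, adjusted p = 0.879), intervals that hold changes of either sign. In WT mice its change was -0.45 with centred libraries and -0.43 under quantile normalization, and its direction turned without the genes with A or T runs (0.31). With the transgene these scalings gave 1.74, 0.29 and 0.90, and none was called.

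S100a10, the light chain bound by annexin A2, which presents plasminogen at the cell surface, stood at 18.5, 39.9 and 45.1 TPM in BM WT and at 58.5, 34.7 and 19.2 TPM in PT WT. With the transgene it stood at 40.3, 35.3 and 207 TPM in BM and at 7.53, 3.62 and 43.7 TPM in PT. PT Bcl2 libraries 7 and 8 were the lowest of all 12, library 9 lay among the WT values, and BM Bcl2 library 3 was the highest. The change was 0.07 in WT mice (SE 0.87, adjusted p = 0.980) and -2.49 in MRP8-Bcl2 mice (SE 0.87, adjusted p = 0.0539). The latter was called without library 9 (-3.43, adjusted p = 0.0153), among genes with at least 5 TPM in 3 libraries (adjusted p = 0.0437) and with TPM rescaled without S100a8 and S100a9 (-2.75, adjusted p = 0.0315). It was not called with centred libraries (-0.90, adjusted p = 0.512), under quantile normalization (-1.52, adjusted p = 0.270) or without the genes with A or T runs (-1.82, adjusted p = 0.239). In WT mice the change was -0.14 with centred libraries and 0.62 without those genes.

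The ratio of S100a10 to Anxa2 separated the same libraries. For WT mice it was 0.0808 to 0.148 at BM and 0.102 to 0.178 at PT, and for BM Bcl2 it was 0.101 to 0.724. In PT Bcl2 libraries 7, 8 and 9 it was 0.0221, 0.0201 and 0.118, so that libraries 7 and 8 lay below all others. Library 9, which has mouse Bcl2 at the WT level, lay within the ranges of BM WT, PT WT and BM Bcl2 alike. In libraries 7 and 8 S100a10, at 7.53 and 3.62 TPM, rested on few reads. There 1 read on a transcript of 1000 nt was worth an estimated 1.07 and 0.690 TPM.

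**Figure D4:**
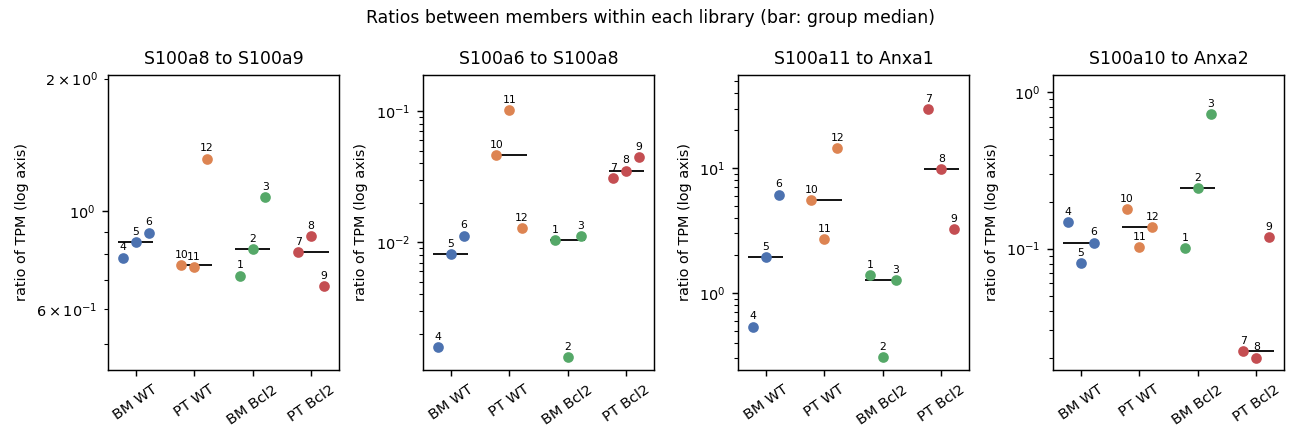
Ratios of TPM between members within each library (log axis), by group, with library numbers and the group median as a bar. S100a8 to S100a9 stays between 0.678 and 1.32, S100a6 to S100a8 is higher in every PT library than in every BM library, and S100a10 to Anxa2 is lowest in PT Bcl2 libraries 7 and 8. S100a8 alone also separates the sites, and the share of all tested genes whose ratio to it does so was not counted.

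S100a4, which binds nonmuscle myosin and is linked to cell motility, stood at 246.8, 96.7 and 76.2 TPM in BM WT and at 119, 166 and 24.7 TPM in PT WT. In the Bcl2 groups it stood at 171, 128 and 983 TPM in BM and at 47.0, 6.44 and 196 TPM in PT. Library 3 was the highest and library 8 the lowest, and BM and PT overlapped in both genotypes. The change was -0.62 in WT mice (SE 1.08, adjusted p = 0.823) and -2.76 in MRP8-Bcl2 mice (SE 1.08, adjusted p = 0.0792). The latter was called without library 9 (-3.88, adjusted p = 0.0232) and with TPM rescaled without S100a8 and S100a9 (-3.01, adjusted p = 0.0485). With centred libraries, under quantile normalization and without the genes with A or T runs S100a4 had changes of -0.83, -0.85 and -0.08 for WT mice. With the transgene they were -1.17, -2.30 and -2.05, and none was called.

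Library 3 also had the highest sum of monocyte markers (Ccr2, Ly6c2 and F13a1), at 1899 TPM against 411 to 1156 TPM in the other BM libraries and 44.1 to 88.8 TPM in PT. Among the other BM libraries S100a4 did not follow these markers. It stood at 246.8 TPM in library 4, where they summed to 411 TPM, and at 76.2 TPM in library 6, where they summed to 1156 TPM. S100a10 rose in their order, from 18.5 TPM in library 4 to 45.1 TPM in library 6. The part of these markers in the S100a4 and S100a10 levels was not tested. S100a4 and S100a10 had similar profiles (0.91). Of the 31-nt stretches of S100a4, 49.2% are shared with the annotated gene Gm42674, so that its level is uncertain.

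The change from BM to PT was then compared between the genotypes, and no member was called. By limma, 0 of 9 were called and the adjusted p lay between 0.303 and 0.918, where 0.0149% of all tested genes were called (2 genes). An unadjusted p under 0.05 was found for 0 of 9 members and for 2279 of all 13456 tested genes. The intervals were wide, and the sizes depended on the scaling. The median difference over all tested genes was -1.18, and 0.62 with centred libraries. The fall of S100a8 was shallower in MRP8-Bcl2 mice by 1.25 (95% interval -0.74 to 3.25) and that of S100a9 by 1.49 (95% interval -0.31 to 3.29), values that did not pass the test. For S100a10 the difference was -2.56 (95% interval -5.19 to 0.06) and for S100a11 1.71 (95% interval -0.22 to 3.63). Anxa1, called in MRP8-Bcl2 mice alone, differed between the genotypes by -0.18 (95% interval -1.99 to 1.62), which did not pass the test.

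The genotypes were also compared at each site. In BM, 0 of 9 members were called by limma, where 0.0223% of all tested genes were called (3 genes). An unadjusted p under 0.05 was found for 0 of 9 members and for 991 of all 13456 tested genes. The median difference over all tested genes in BM was 0.49, and -0.25 with centred libraries. S100a8 differed there by -0.79 (95% interval -2.20 to 0.62), S100a9 by -0.81 (95% interval -2.09 to 0.46) and S100a11 by -1.30 (95% interval -2.66 to 0.06). In PT, again 0 of 9 were called, where 0.0297% of all tested genes were called (4 genes). By limma 0 of 9 had an unadjusted p under 0.05, against 1709 of all 13456 tested genes. The median over all tested genes in PT was -0.67, and 0.40 with centred libraries. There the changes ran from -1.54 for S100a10 (95% interval -3.39 to 0.32) to 0.68 for S100a9 (95% interval -0.60 to 1.95). All 9 genes overlapped between genotypes at both sites. The share of all tested genes that overlap in this way was not counted.

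The libraries were also set against each other over the 9 members by the root mean square difference of log2(TPM + 1). PT Bcl2 library 9 lay 0.38 from PT WT library 10 and 0.54 from library 11, but 1.69 and 2.09 from PT Bcl2 libraries 7 and 8. PT WT library 12 lay nearest to library 7 (1.28) and 1.89 and 1.79 from libraries 10 and 11. Over all tested genes, however, library 12 was nearest to library 11 (1.51) and lay 2.24 from library 7, the largest distance of all PT pairs, and library 9 lay 1.32 from library 11, 1.33 from library 10 and 1.44 from library 8. In BM, libraries 1 and 5 (0.38) and libraries 2 and 4 (0.49) were nearest to each other across genotypes by the members. The nearest library of the same site was of the other genotype for 5 of 6 PT and 4 of 6 BM libraries by the members, but for 1 of 6 PT and 5 of 6 BM libraries over all tested genes.

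With libraries 9 and 12 both left out, S100a8, S100a9 and Anxa3 remained called in WT mice (-4.40, -4.23 and -4.60). In MRP8-Bcl2 mice S100a8 (-1.82, adjusted p = 0.0410), Anxa1 (-2.62, adjusted p = 0.0112), Anxa3 (-5.09, adjusted p = 0.00185), S100a4 (-3.88, adjusted p = 0.0192) and S100a10 (-3.43, adjusted p = 0.0167) were then called and S100a9 was not (-1.79, adjusted p = 0.0582). With libraries 3 and 9 left out, S100a8 lost its call in MRP8-Bcl2 mice (-2.20, adjusted p = 0.0870) and Anxa3 lost its call in WT mice (-3.55, adjusted p = 0.0561).

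Of 12 other S100 genes on a list, 10 were in the table and 4 were tested. None was called in any of the 5 comparisons by limma. In the WT comparison of PT with BM alone, 1 had an unadjusted p under 0.05, as had 2223 of all 13456 tested genes. The highest level of these other S100 genes was 29.7 TPM, which S100a4, S100a10 and Anxa3 also fell below in some libraries. S100a14, S100a16 and S100z were listed at 0 in all libraries. S100a1 was above 0 in BM libraries 4 and 6 (20.5 and 29.7 TPM) and 2 and 3 (4.23 and 21.4 TPM) and listed at 0 in all 6 PT libraries and in BM libraries 1 and 5. S100a7a was above 0 in PT libraries 10, 12 and 8 (3.69, 3.29 and 21.3 TPM) and in no BM library. In library 8 it was above S100a4, S100a10 and Anxa3.

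All 9 other annexin genes were in the table and 6 were tested, of which none was called in any of the 5 comparisons by limma. For PT against BM in MRP8-Bcl2 mice 5008 of all 13456 tested genes had an unadjusted p under 0.05. In that comparison alone, 2 of these 6 annexins did. Those were Anxa5 (-2.22, SE 0.79, adjusted p = 0.0580), the phosphatidylserine-binding annexin used to stain dying cells, and Anxa7 (-1.57, SE 0.63, adjusted p = 0.0853). Anxa5 stood at 30.8, 27.1 and 90.5 TPM in BM Bcl2 and 21.8, 2.15 and 10.4 TPM in PT Bcl2. Changes of the other annexins are given on the main scale alone, and those over all genes in MRP8-Bcl2 mice depended on the scaling. Anxa4, Anxa6, Anxa7 and Anxa11 were above 0 in all 12 libraries, up to 99.5 TPM, and Anxa8, Anxa10 and Anxa13 were listed at 0 in all of them.

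**Figure D5:**
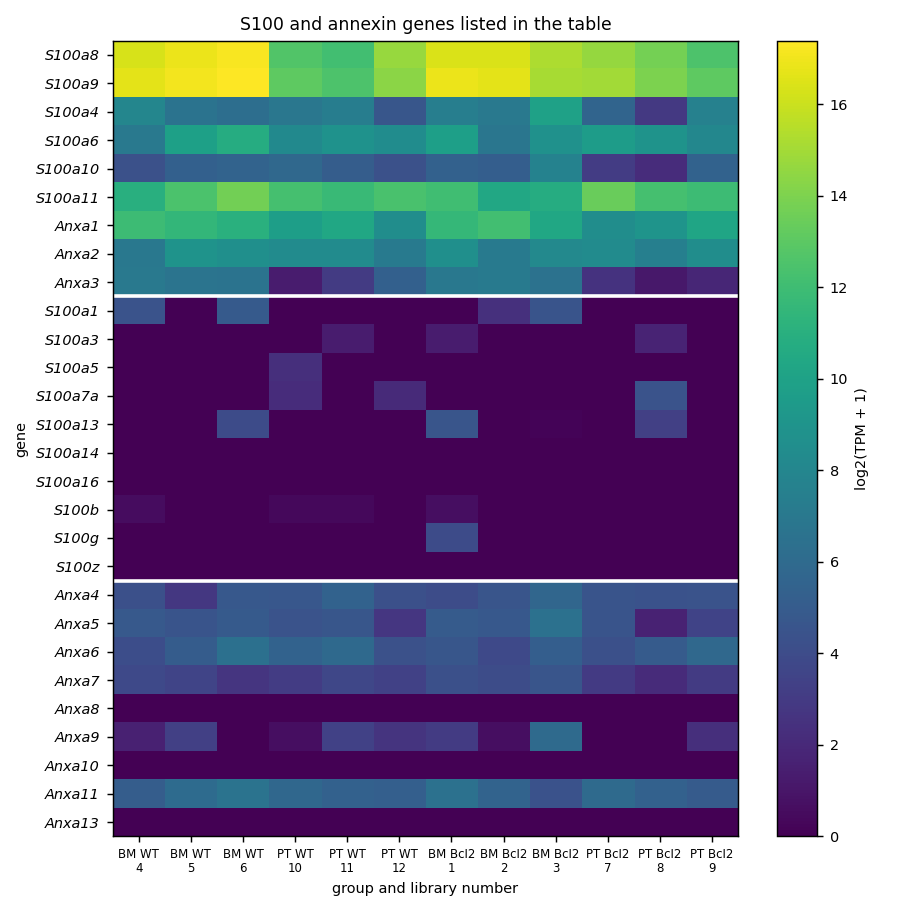
Level of the S100 and annexin genes in the table in each library, as log2(TPM + 1) by color, with the 9 members at the top, the other S100 genes in the middle and the other annexins at the bottom. S100a8 and S100a9 are the brightest rows in every library, Anxa3 darkens in PT, and most other S100 genes are at or near 0.

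The list of binding partners and receptors held 18 genes, all in the table, of which 14 were tested. Their changes are given on the main scale alone. Over all tested genes the median change in MRP8-Bcl2 mice depended on the scaling (-1.02, and 0.57 with centred libraries). In WT mice 1 partner rose in PT and 0 fell, where 1.59% of all tested genes were called higher and 1.22% lower. In MRP8-Bcl2 mice 3 rose and 1 fell, where 2.31% were called higher and 19.1% lower. A count of 1 among 14 is too small to be set apart from the share of all genes. Plgrkt, a plasminogen receptor that like S100a10 binds plasminogen at the membrane, rose in both. It stood at 17.3, 9.98 and 1.91 TPM in BM WT and 461, 416 and 329 TPM in PT WT (change 5.57, SE 0.71, adjusted p = 0.00132). The transgenic libraries had it at 32.5, 66.6 and 71.6 TPM in BM and 799, 163 and 339 TPM in PT (change 2.69, SE 0.71, adjusted p = 0.0172). BM and PT did not overlap in either genotype for Plgrkt, whereas they overlapped in both for S100a10.

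Tlr4, the receptor that senses calprotectin, stood at 79.2, 92.8 and 59.6 TPM in BM WT and 240, 188 and 218 TPM in PT WT. In MRP8-Bcl2 mice it stood at 44.2, 45.2 and 42.1 TPM in BM and 268, 220 and 146 TPM in PT. Every PT library lay above every BM library, opposite to S100a8 and S100a9 in the same libraries. The change was 2.20 in MRP8-Bcl2 mice (SE 0.45, adjusted p = 0.00547) and 1.49 in WT mice (SE 0.45, adjusted p = 0.0981). Ager, which encodes RAGE, was low, at 0 to 8.51 TPM, and was not called (1.95, adjusted p = 0.234 in WT and -1.41, adjusted p = 0.211 in MRP8-Bcl2 mice).

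Cd33, a sialic acid-binding receptor reported to bind S100A9, rose in MRP8-Bcl2 mice (2.07, SE 0.66, adjusted p = 0.0387) and had a change of 0.98 in WT mice (adjusted p = 0.493). Pla2g4a, the cytosolic phospholipase that releases arachidonic acid and is inhibited by annexins, fell in MRP8-Bcl2 mice (-2.50, SE 0.75, adjusted p = 0.0302) and had a change of 0.19 in WT mice (adjusted p = 0.932). The formyl peptide receptor genes through which annexin A1 acts were not called. The change of Fpr1 was -1.08 in WT mice (adjusted p = 0.678) and 0.02 in the transgenic mice (adjusted p = 0.987). That of Fpr2 was -1.06 (adjusted p = 0.472) and -0.77 (adjusted p = 0.435) in the same order. No partner was called in the difference between genotypes by limma, where 3 had an unadjusted p under 0.05, as had 2279 of all 13456 tested genes.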

How the data were processed

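Sorted mouse neutrophils gave 12 RNA libraries, in 4 groups of 3. The authors sequenced amplified cDNA, ran AltAnalyze with its default settings on the reads and deposited log2(TPM + 1) per gene and library; the aligner and genome build are not given in the sources used here. Deposited averages, fold changes and p-values of the authors' own comparisons were not used, nor were 2 columns of values whose sample is not known. Libraries were placed in groups by column name. The 13456 genes that reached 1 TPM in 3 or more libraries were tested with limma 3.58.1 in R 4.3.3 (eBayes with trend, 8 residual degrees of freedom) in 1 fit of the 4 groups, with Benjamini-Hochberg adjustment over all of them. Positions and transcripts come from GENCODE M21 (GRCm38), matched for 27458 genes, and promoters from RefSeq. TPM holds no read totals; the value of 1 read was estimated from steps between low values, of which 70.4 to 78.0% lay within 0.15 of a whole number of reads. The members and lists were chosen with earlier results of these data known. The fit was tested on simulated data. Named genes were the members, the called or lowest-p genes of 3 lists with Tlr4, Ager, Fpr1 and Fpr2, and the 3 profiles most like S100a8, S100a6 and Anxa1. Alternatives were another pseudocount (0.1), filters, scalings, thresholds and variance models, fits of only the groups compared and fits without each library.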

Additional observations from a re-analysis of the deposited data

How the results depend on the processing

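In WT mice 3 members were called for PT against BM. That count was 1 with no filter on low values (S100a9), 1 under quantile normalization (Anxa3) and 1 with only the groups compared (S100a9). It was 1 with TPM rescaled without S100a8 and S100a9, which leaves the pair out by construction (Anxa3), and 1 to 3 without each library in turn. Anxa3 lost its call with a pseudocount of 0.1 and without libraries 3 and 9. At an unadjusted p the count was 4, with Anxa1 added, where 2221 of all 13456 tested genes passed. In MRP8-Bcl2 mice 4 were called. That count was 1 with no filter (Anxa3), 2 with each library centred on its median (S100a11 and Anxa3) and 1 under quantile normalization (Anxa3). It was 7 at an unadjusted p, where 5006 of all 13456 tested genes passed. It was 2 with only the groups compared (S100a8 and Anxa3), and 1 to 4 without each library in turn. Among genes with at least 5 TPM in 3 libraries S100a10 was called as well. Without the genes with A or T runs S100a11, called higher, stood in place of Anxa1. With TPM rescaled without S100a8 and S100a9, and without libraries 9 and 12, S100a4 and S100a10 were added. The cause of these changes in the counts was not tested. For the difference between genotypes and for Bcl2 against WT at each site the count stayed at 0 without each library in turn. Rescaling without S100a8 and S100a9, and leaving out libraries 9 and 12 or 3 and 9, were chosen after seeing the data. No paired analysis was possible because no column name gives a mouse or a replicate number. With 3 libraries a group, a member that was not called can still differ.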
